A study of Mus musculus with 28 samples.

Results

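Immediate-early genes are the first genes that a stimulated neuron switches on. Synaptic calcium and growth factor signals activate kinases that modify transcription factors already sitting at these promoters, among them CREB and the serum response factor, so that transcription starts without new protein synthesis. Many of the products are transcription factors that drive a later wave of genes, while others act at synapses or switch the signal off, and most of the mRNAs are short-lived, so that their level follows recent activity closely. The count tables list 45513 genes. The 10 genes described here were taken by name as activity-dependent immediate-early genes, with earlier results of these data known. They are Fos, Fosb and Junb, subunits of the AP-1 transcription factor; Egr1 and Egr2, zinc-finger transcription factors; Npas4, a neuronal bHLH-PAS transcription factor; Nr4a1, an orphan nuclear receptor; Arc, a synaptic protein that promotes endocytosis of AMPA receptors; Ier2, a small nuclear protein; and Dusp1, a phosphatase that inactivates MAP kinases. All are protein-coding genes with 1522 to 4484 nt of exon, and none shares exon bases with another annotated gene. On GRCm38, Arc lies at chr15:74669083-74672570 and Ier2 at chr8:84661331-84662852, both on the minus strand, and positions near the starts of most others are given with their promoters. The list is short of the whole class, and 36 further primary response genes, 12 later response genes and 3 other pathway lists were read beside it.

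The study sequenced ribosome footprints, which are the mRNA fragments that ribosomes shield from RNase, and fragmented poly(A)-selected total mRNA from each of 14 cultures, to ask which mRNAs the ALS protein TDP-43 affects at the level of translation. Neurons were dissociated from E16 cerebral cortex of C57BL/6J mice and harvested after 14 days in vitro, with 0.5 µM Ara-C added at day 4 against dividing cells. Cultures were hemizygous for Prp-hTARDBP WT (hTDP-43, 3 cultures) or Prp-hTARDBP A315T (hTDP-43 A315T, 3 cultures), both driven by the prion protein promoter, or came from non-transgenic littermates (2 cultures). MN1 cells, a clonal hybrid line of mouse spinal motor neurons and neuroblastoma, carried a transient plasmid for GFP (2 cultures), hTDP-43 (2 cultures) or hTDP-43 A315T (2 cultures) and received 100 µg/mL cycloheximide for 3 min before lysis, which the neurons did not. No stimulus or silencing of the neurons is named, so the levels are those of unstimulated cultures. The titles carry a bare date, without the step it marks, that goes with the replicate number and is called the culture date here. For the neurons these are 17 June (date 1), 16 July (date 2) and 29 July (date 3), and for MN1 cells 17 April (date 1) and 22 May (date 2), with a different year on 1 GFP footprint library of MN1 cells. Date 1 of the neurons holds 1 hTDP-43 and 1 hTDP-43 A315T culture and no non-transgenic culture. Nothing beyond the date says whether cultures came from separate litters, and p-values measure the spread between these cultures.

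Neuron footprint libraries held between 166064 and 2528820 assigned reads and neuron total mRNA libraries between 600385 and 6969578. MN1 footprint libraries held between 332370 and 1219222 and MN1 total mRNA libraries between 1328528 and 2988339. The date 1 libraries were the deepest of the neurons in both library types, with 2389229 and 2528820 reads in footprints and 5395138 and 6969578 in total mRNA. Both hTDP-43 footprint libraries of the later dates held under 200000 reads. Lars2 took 18.8% of the reads of the non-transgenic and 14.1% of the hTDP-43 total mRNA library of date 3, and at most 7.49% in the others. Neuronal markers summed to between 3377 and 4086 CPM in neuron total mRNA, while microglial markers summed to at most 3.27 CPM and cycling markers to at most 5.79 CPM. MN1 cells held the motor neuron transcription factor Isl1 and the vesicular acetylcholine transporter Slc18a3. The cholinergic enzyme gene Chat had 0 to 7 reads per total mRNA library. MN1 cells also held few reads of the other motor neuron markers. They had 2 to 3 of Mnx1, 3 to 15 of Isl2, 1 to 14 of Lhx3 and 0 to 8 of Slc5a7. Their neuronal markers (7 genes) summed to between 513 and 642 CPM, with Tubb3 at 373 to 461 CPM and Rbfox3, the neuronal nuclear antigen, at 0 to 4 reads. Cycling markers summed to between 436 and 714 CPM in MN1 total mRNA.

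The promoters of 7 of these genes hold a shared short element, the core of the cAMP response element (CRE) to which CREB binds, so its nearest surroundings are shown for the 7 genes that have an entry. RefSeq promoter windows of GRCm38.p6, each 250 bases before to 50 after a start, were found for 7 of the 10 genes (not for Arc, Egr1 and Ier2). The letters TGACG were searched on both strands, and the palindrome TGACGTCA, the full CRE, contains them on each strand. All 7 genes held TGACG or its complement, against 23.0% of all 27025 genes in the table (20.8% of its 32851 windows). Only Dusp1 of the 7 held the full CRE, against 2.03% of genes, and only Egr2 held a CArG box, the serum response element core, against 1.81%. Bases outside these windows were not searched, so the other genes may hold such elements further from the start. Such a match describes the letters and not a bound site. In the lines that follow the element is in capitals, 5′ to 3′ on the strand of the gene, in the order Fos chr12:85473806-85473846 (plus strand), Fosb chr7:19310083-19310123 (minus), Junb chr8:84978832-84978872 (minus), Egr2 chr10:67537796-67537836 (plus), Npas4 chr19:4990118-4990158 (minus), Nr4a1 chr15:101266788-101266828 (plus) and Dusp1 chr17:26508590-26508633 (minus).
Fos: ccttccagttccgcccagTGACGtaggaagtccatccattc
Fosb: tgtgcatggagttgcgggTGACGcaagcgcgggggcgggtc
Junb: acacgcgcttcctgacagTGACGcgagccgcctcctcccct
Egr2: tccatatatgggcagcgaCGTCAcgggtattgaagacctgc
Npas4: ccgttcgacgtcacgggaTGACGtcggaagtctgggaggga
Nr4a1: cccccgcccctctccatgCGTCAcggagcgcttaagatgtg
Dusp1: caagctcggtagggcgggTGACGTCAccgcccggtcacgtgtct
The Fos element shown lies 62 to 66 bases before the start and the Fosb element shown 56 to 60 bases before it.

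In neurons these genes separated by culture date. All of them except Ier2 were higher in both date 1 libraries than in each of the 6 later libraries, in footprints and again in total mRNA. The ratio of the date 1 mean to the mean of the later libraries had a median of 3.01 over the 10 genes in footprints (range 1.2 to 4.16) and of 2.35 in total mRNA (range 1.51 to 4.86). Among all genes with a mean of at least 10 CPM (counts relative to the library total, scaled by TMM), 6.22% lay this way in footprints and 6.54% in total mRNA. The 10 genes were chosen with earlier results of these data known, so such shares describe the list and do not test it. Footprints and total mRNA come from the same cultures, so they are not independent views of the date. The plot of levels by culture date shows each library.

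**Figure D1:**
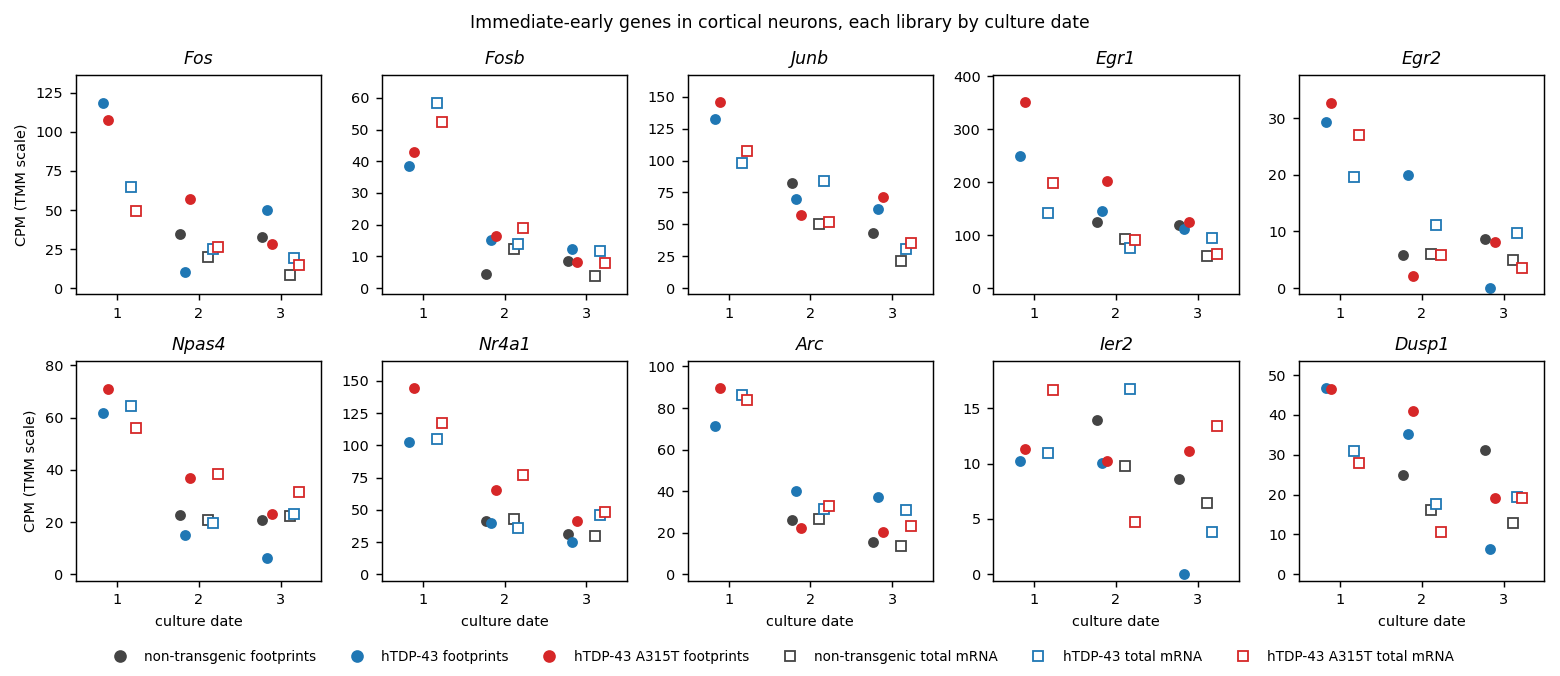
Level of each of the 10 genes in CPM (vertical axis, linear, from 0) in each neuron library by culture date (horizontal axis). Filled circles are footprints, open squares are total mRNA, and colours mark the genotype; the 2 date 1 cultures stand above the later cultures for every gene but Ier2.

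The AP-1 subunits were the first group. Footprints of Fos, the partner that needs a Jun protein to bind DNA, stood at 119 CPM (hTDP-43) and 108 CPM (hTDP-43 A315T) at date 1. They were at 34.4, 10.0 and 57.3 CPM at date 2 and at 32.8, 49.9 and 28.3 CPM at date 3 in non-transgenic, hTDP-43 and hTDP-43 A315T neurons in that order, which is kept throughout. Fos total mRNA was at 64.6 and 49.2 CPM at date 1, at 20.1, 25 and 26.3 CPM at date 2 and at 8.32, 19.3 and 14.9 CPM at date 3. Both libraries of date 1 were thus above all others, while the later dates overlapped each other in footprints. With the genotype in the model, Fos footprints were lower at date 2 (log2 fold change against date 1 of -1.45 ± 0.30 SE, edgeR adjusted p = 0.0153) and at date 3 (-1.70 ± 0.29, adjusted p = 0.00111).

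Fosb, whose truncated splice form accumulates under chronic stimulation, spread the most between dates in total mRNA. It was at 58.5 and 52.5 CPM there at date 1, at 12.3, 13.9 and 18.9 CPM at date 2 and at 3.78, 11.6 and 7.97 CPM at date 3. Its footprints were at 38.6 and 42.8 CPM at date 1 and between 4.39 and 16.4 CPM in the 6 later libraries, some of which held as few as 2 reads of the gene. The counts do not separate the splice forms. Fosb footprints fell by 1.91 ± 0.39 on the log2 scale from date 1 to date 3 (adjusted p = 0.00622), and the value for date 2 was -1.64 ± 0.43 (adjusted p = 0.0901).

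Junb, the Jun family partner of the group, was at 133 and 146 CPM in footprints of date 1, at 82.7, 70.2 and 57.3 CPM at date 2 and at 43.2, 62.3 and 71.7 CPM at date 3. Its total mRNA was at 97.8 and 107 CPM at date 1, at 50.6, 84.4 and 51.5 CPM at date 2 and at 21.6, 30.9 and 35.7 CPM at date 3. The separation from the later libraries was narrower than for Fos and Fosb, since the highest later total mRNA library reached 84.4 CPM. Junb footprints fell by 1.18 ± 0.21 on the log2 scale by date 3 (adjusted p = 0.0022), with -0.89 ± 0.23 at date 2 (adjusted p = 0.0825).

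Egr1, which activates synaptic plasticity genes, was the most abundant of the 10 in neuron footprints by CPM. It was at 249 and 352 CPM at date 1, at 124, 146 and 203 CPM at date 2 and at 119, 112 and 125 CPM at date 3. In total mRNA it was at 142 and 198 CPM at date 1 and between 60.9 and 94.6 CPM later. Date 1 was above all later libraries in both, and Egr1 had the smallest standard error of the list in the footprint tests against date 1. Its footprints fell by 0.85 ± 0.17 on the log2 scale by date 2 (adjusted p = 0.00904) and by 1.23 ± 0.17 by date 3 (adjusted p = 0.000106). Egr2, a relative best known for myelination and found in neurons after activity, was at 29.3 and 32.7 CPM in footprints of date 1 and between 0 and 20.1 CPM later, where the hTDP-43 library of date 3 had no read of it and 3 counts would be worth 18.1 CPM. In total mRNA it was at 19.6 and 27.1 CPM at date 1 and between 3.60 and 11.1 CPM later. Egr2 footprints fell by 2.00 ± 0.51 on the log2 scale by date 3 (adjusted p = 0.0331), with -2.24 ± 0.60 at date 2 (adjusted p = 0.1). Egr2 met the filter on low counts there only through the date 1 libraries, where it was high, so this test adds no support.

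Npas4, which responds to depolarization and calcium entry and shapes inhibitory synapses, was at 61.5 and 71.0 CPM in footprints of date 1. It was at 22.7, 15.1 and 36.8 CPM at date 2 and at 20.7, 6.23 and 23.2 CPM at date 3, and its total mRNA was at 64.5 and 55.9 CPM at date 1 and between 19.5 and 38.5 CPM later. The hTDP-43 libraries of dates 2 and 3 rest on 3 and 1 footprint reads. Npas4 footprints fell by 1.67 ± 0.29 on the log2 scale by date 3 (adjusted p = 0.00136), and the value at date 2 lay just outside the threshold at -1.28 ± 0.31 (adjusted p = 0.0506).

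Nr4a1, a nuclear receptor without a known natural ligand, gave the smallest adjusted p of the list by date. Its footprints were at 102 and 144 CPM at date 1, at 41.0, 40.1 and 65.5 CPM at date 2 and at 31.1, 24.9 and 41.4 CPM at date 3. Its total mRNA was at 105 and 117 CPM at date 1, at 42.5, 36.2 and 76.6 CPM at date 2 and at 29.9, 46.3 and 48.3 CPM at date 3. In footprints it fell by 1.21 ± 0.22 on the log2 scale by date 2 (adjusted p = 0.00375) and by 1.75 ± 0.21 by date 3 (adjusted p = 2.19e-05).

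Arc, whose mRNA travels into dendrites, was at 71.3 and 89.6 CPM in footprints of date 1, at 26.4, 40.1 and 22.5 CPM at date 2 and at 15.5, 37.4 and 20.2 CPM at date 3. Its total mRNA was at 86.3 and 83.7 CPM at date 1, at 26.4, 31.5 and 33.0 CPM at date 2 and at 13.6, 30.9 and 23.1 CPM at date 3. The highest later library, at 40.1 CPM in footprints and 33.0 CPM in total mRNA, stood well below date 1 in both library types. Arc footprints fell by 1.41 ± 0.31 on the log2 scale by date 2 (adjusted p = 0.0263) and by 1.88 ± 0.29 by date 3 (adjusted p = 0.000424).

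Dusp1 and Ier2 differed least between dates in footprints. Dusp1 footprints were at 46.7 and 46.4 CPM at date 1, at 24.9, 35.1 and 40.9 CPM at date 2 and at 31.1, 6.23 and 19.2 CPM at date 3, with -0.56 ± 0.34 at date 2 (adjusted p = 0.672) and -1.03 ± 0.33 at date 3 (adjusted p = 0.101). Its total mRNA was at 30.9 and 27.8 CPM at date 1 and between 10.6 and 19.3 CPM later. Ier2 was at 10.2 and 11.3 CPM in footprints of date 1 and between 0 and 13.9 CPM later, and at 11 and 16.7 CPM in total mRNA of date 1 and between 3.86 and 16.7 CPM later. Its dates overlapped in both, and it missed the filter on low counts in footprints.

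Of the 9 genes tested in footprints, 4 passed at date 2 against date 1 and 8 passed at date 3 against date 1, all lower. The 8 include Egr2, which met the filter on low counts only through date 1. Of all genes tested, 0.836% passed at date 2 (0.532% lower) and 2.61% passed at date 3 (1.41% lower), and the median log2 fold change over all genes was near 0. Between dates 3 and 2 none of the 9 passed with edgeR or with DESeq2 (values from -0.54 to 0.23), where 0.304% of all genes did. At an unadjusted p under 0.05 were 2 of the 9 and 10.1% of all genes. Single libraries and the choice of tool moved these counts. DESeq2 called 0 genes at date 2 and 2 at date 3, which were Egr1 and Nr4a1. Without the hTDP-43 A315T footprint library of date 1 the counts were 0 and 2 (Npas4 and Nr4a1 at date 3). Without that of date 3 they were 6 and 3, and the count at date 2 was 2 without the hTDP-43 library of date 1 or the non-transgenic library of date 3. Nr4a1 at date 3 passed under every alternative that was run for it (largest adjusted p = 0.0345).

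In total mRNA the values were below 0 for all 10 genes, with medians of -0.96 at date 2 and -1.40 at date 3 against -1.28 and -1.70 in footprints, and none passed with edgeR. At date 2 they ranged from -1.60 to -0.33 (smallest adjusted p = 0.751) and at date 3 from -2.71 to -0.45 (smallest adjusted p = 0.0503, for Fosb). In each, 8 of 10 were at an unadjusted p under 0.05, where 6.08% and 4.06% of all genes were. Between dates 3 and 2 the values ranged from -1.13 to 0.27, with 3 of 10 and 12.7% of all genes at an unadjusted p under 0.05. DESeq2 called 0, 4 and 0 genes in these comparisons. Among all genes 0.00815%, 0.00815% and 0.0326% passed with edgeR. Without both Lars2-rich libraries, an alternative chosen after seeing the data, date 3 is left with 1 total mRNA library (hTDP-43 A315T), which is assumed to vary like the other libraries. In that fit 9 of 10 passed at date 2 and 8 of 10 at date 3, all lower, against 3.33% and 5.98% of all genes. In that 1 library of date 3 Fosb was at -2.77 on the log2 scale (edgeR adjusted p = 4.67e-13), Arc at -1.84 (3.65e-08) and Egr1 at -1.55 (1.78e-08). Over all alternatives of these 3 results the adjusted p reached 0.268, 0.86 and 1 in that order. Without the hTDP-43 A315T total mRNA library of date 3 the counts were 7 at date 2, 6 at date 3 and 3 between dates 3 and 2, and without that of date 2 they were 0, 1 and 1.

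**Figure D2:**
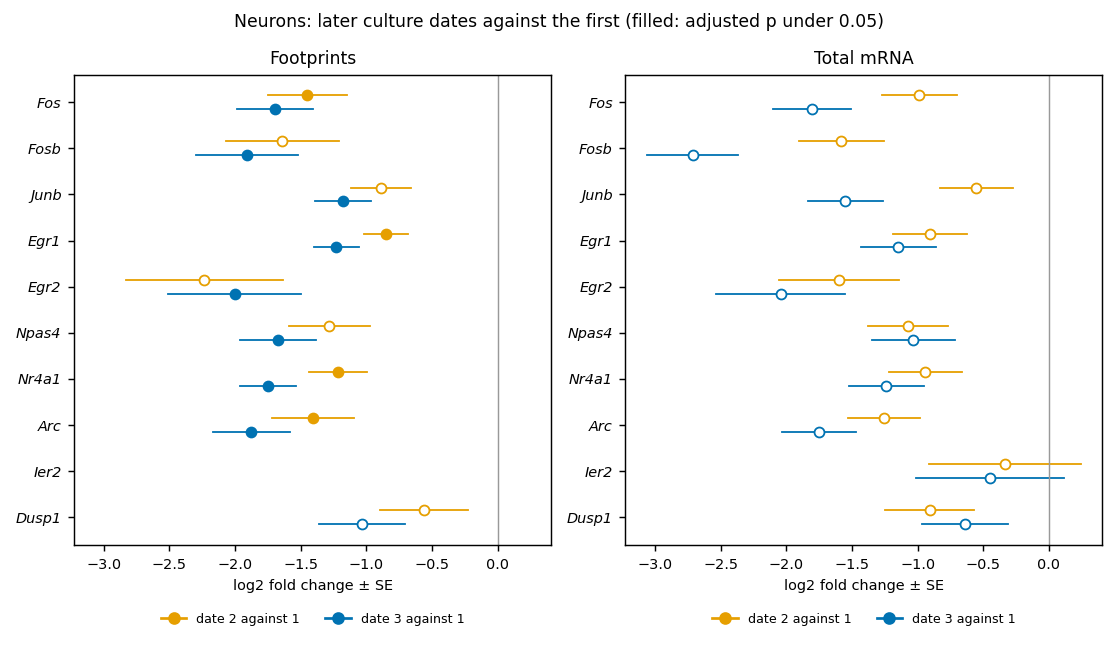
Log2 fold change of each gene at culture dates 2 and 3 against date 1 in neurons (horizontal axis, with SE as bars), for footprints and total mRNA. Filled points passed an edgeR adjusted p of 0.05, which 4 and 8 of 9 genes did in footprints and none did in total mRNA; every point lies below 0.

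The cultures of date 1 differ from the later ones in everything that was done on that day, which cannot be told apart from the date itself. In bulk samples fewer cells of a type and less RNA per cell cannot be told apart either. Marker sums of inhibitory neurons (3 genes, none at 0) were also higher at date 1 in total mRNA, at 856 to 1019 CPM against 562 to 736 CPM at date 2 and 490 to 624 CPM at date 3. Those of excitatory neurons (4 genes, none at 0) overlapped, at 915 to 955 CPM, 933 to 1107 CPM and 550 to 1007 CPM, and those of astrocytes did too, at 68.0 to 79.4 CPM, 63.0 to 100.2 CPM and 38.1 to 85.0 CPM. The part of the inhibitory marker level and of library depth in the date difference was not tested.

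Other genes of the response were lower at the later dates in part. Of the 25 other primary response genes tested in neuron footprints, 5 fell and none rose from date 1 to date 3, among them Ptgs2, the inducible cyclooxygenase (log2 fold change -3.22, edgeR adjusted p = 0.00417), Egr4, a further zinc-finger factor (-1.09, adjusted p = 0.0045), and Homer1, whose short form is induced by activity (-0.97, adjusted p = 0.00253), where 1.41% of all genes were called lower. Their median was -0.41, against -1.70 for the 9 genes above. At date 2 none of the 25 passed and 23 were negative. Of 11 later response genes, 3 fell by date 3, which were Inhba, a subunit of activin (-1.64), Nptx2, a pentraxin that clusters AMPA receptors (-1.41), and Scg2, a secretogranin (-0.76). Nptx2 (-1.31) and Scg2 (-0.60) also fell by date 2.

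Genes upstream of the promoters showed no such calls. None of the 27 kinases, receptors and transcription factors that carry the signal to these promoters passed at either date, with medians of 0.01 and -0.07. Of all genes 0.836% and 2.61% passed at these dates. None of 9 factors that bind or degrade AU-rich mRNAs passed, and of 8 feedback inhibitors of the pathway 1 fell by date 3, which was Spry2, an inhibitor of receptor tyrosine kinase signalling (-1.33, adjusted p = 0.0115). In total mRNA no gene of these lists passed at either date, where 0.00815% of all genes passed at each. With shares this low, lists of 27, 9 and 8 genes are not set apart by holding no call or 1.

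Across the 8 neuron total mRNA libraries, the gene outside the list whose level followed Fos most closely was Egr4, with a root mean square difference of 0.26 on the centred log2 scale, followed by Btg2 (0.40), an antiproliferative factor, and Penk (0.40), which encodes enkephalins. Egr4 was also nearest to Arc (0.32) and to Junb (0.20). Egr1 was followed instead by Rhoq (0.17), Rreb1 (0.22) and Ism1 (0.24). Within the list, Fos and Arc differed from each other by 0.15, the closest to Fos of all. Genes were eligible with a mean of 10 CPM or more and enough spread between libraries, and the libraries share the date difference described above.

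No gene of the list passed in any comparison of genotypes in neurons, with edgeR or DESeq2. The question is whether hTDP-43 or its A315T form alters these mRNAs, and since both transgenic groups hold a date 1 culture and the non-transgenic group does not, genotype and date overlap. In footprints of hTDP-43 A315T against non-transgenic neurons, 8 of 9 genes tested were above 0. The 9 had a median log2 fold change of 1.01 (range -0.13 to 2.12). At an unadjusted p under 0.05 lay 5 of the 9 and 3.15% of all genes, and 0% of all genes passed. In footprints of hTDP-43 all 8 tested were above 0 with a median of 1.03. At an unadjusted p under 0.05 lay 7 of the 8 and 5.16% of all genes, and 0% of all genes passed. Arc came closest to passing in hTDP-43 footprints, at 1.4 (edgeR adjusted p = 0.317). Fosb in the A315T and Egr2 in the hTDP-43 comparison met the filter on low counts only through the transgenic libraries, where they were high. These values of Fosb and Egr2 add no support. In total mRNA all 10 were above 0, with medians of 0.97 for hTDP-43 A315T and 0.90 for hTDP-43, where 0% and 0% of all genes passed. At an unadjusted p under 0.05 lay 2 and 4 of the 10, and 1.64% and 0.372% of all genes.

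The medians were lower when date 1 was left out. With dates 2 and 3 only, chosen after seeing the data, the medians were 0.23 and -0.06 in footprints and 0.33 and 0.54 in total mRNA for hTDP-43 A315T and hTDP-43. The footprint medians cover 7 and 6 genes there, against 9 and 8 with all dates, so they compare unlike sets of genes. In total mRNA all 10 genes were fitted in both. With the culture date as a replicate block the medians were 0.33 and -0.03 in footprints and 0.40 and 0.51 in total mRNA, also with no call. Date 1 has no non-transgenic culture and is left out of the block fit too. The block thus used the same libraries and is not a separate view. Fos in hTDP-43 footprints went from 1.30 to -0.25 without date 1, and Nr4a1 from 1.02 to -0.14. The values without date 1 rest on 2 and 8 hTDP-43 reads of Fos and on 8 and 4 of Nr4a1, at dates 2 and 3. Arc in the same comparison was at 0.80 (edgeR adjusted p = 0.981, with a range of 0.00555 to 1 over its alternatives). Within a date, the transgenic library was above the non-transgenic one in 31 of 40 pairs of gene and culture in total mRNA and in 21 of 40 in footprints, with Fos, Fosb, Junb and Arc above in all 4 pairs in total mRNA. Over all genes with a mean of at least 10 CPM, 51.8% of such pairs in total mRNA and 48.6% in footprints lay this way, and 8.27% of genes were above in all 4 pairs in total mRNA. A single non-transgenic culture is the reference for both transgenic cultures and all genes of a date, so the pairs are not independent. The non-transgenic total mRNA library of date 3 is Lars2-rich (18.8% of its reads).

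**Figure D3:**
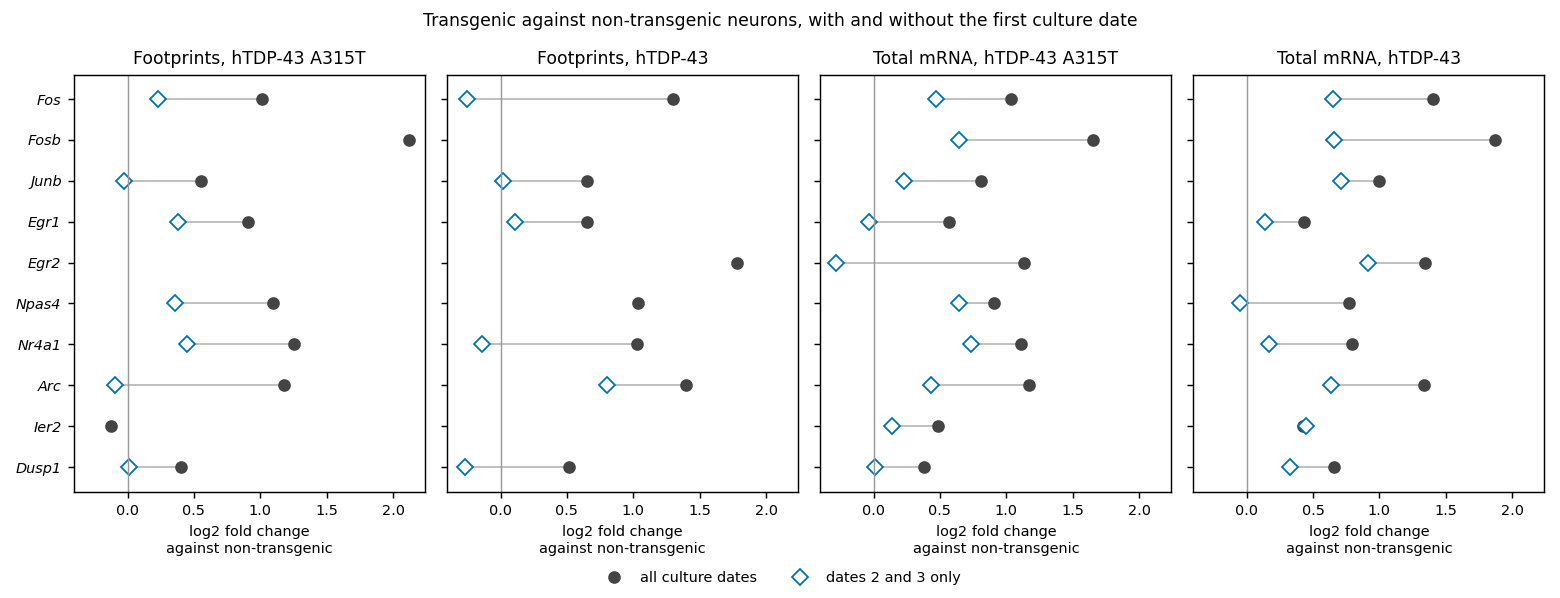
Log2 fold change of each gene in transgenic against non-transgenic neurons (horizontal axis), with all culture dates (dark circles) and with dates 2 and 3 only (open diamonds), for footprints and total mRNA. All circles but 1 lie above 0 and most diamonds lie closer to 0; none passed the test, and genes without a diamond missed the filter on low counts there.

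The transgenic groups share all 3 dates. With hTDP-43 as the reference, the A315T neurons had a median of -0.09 in footprints (9 genes, range -0.32 to 0.30) and of -0.23 in total mRNA (10 genes, range -0.44 to 0.26), with no gene at an unadjusted p under 0.05 and 0% and 0% of all genes called. The sign in footprints depended on the fit, since with the replicate block 8 of 9 genes were positive (median 0.12) against 3 of 9 without it, and the median with DESeq2 was 0.08. The share of footprints to total mRNA between hTDP-43 A315T and non-transgenic neurons, tested as an interaction, gave values from -0.61 to 0.42 with none called and 0% of all genes called. When the filter on low counts was dropped, 6 of the 10 genes passed in hTDP-43 A315T footprints (Fos, Fosb, Arc, Egr1, Npas4 and Nr4a1, named after their values were seen) and 3 in hTDP-43 footprints (Fos, Fosb and Arc), against 0.408% and 0.323% of all genes. The other pathway lists held no call in any comparison of genotypes in neurons.

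In total mRNA, MN1 cells expressed only part of the list above the floor. Junb was at 193 to 226 CPM in total mRNA over 6 libraries (median 209 CPM), against at most 107 CPM in neurons. In footprints it was at 162 to 219 CPM (median 203 CPM), against at most 146 CPM in neurons. TMM scaling was done within each cell type and library type, so CPM of the 2 cell types share no common scale. Ier2 was at 106 to 147 CPM in total mRNA (median 127 CPM) and at 67.9 to 85.2 CPM in footprints (median 78.0 CPM), against at most 16.7 and 13.9 CPM in neurons. Arc was at 46.6 to 67.0 CPM in total mRNA, inside the range of the neurons, and Dusp1 at 24.8 to 36.1 CPM. Fos was at 7.07 to 13.3 CPM in total mRNA and at 12.4 to 28.6 CPM in footprints, and Egr1 at 18.3 to 38.7 CPM and 13.9 to 43.2 CPM. Nr4a1 was at 15.3 to 24.9 CPM in total mRNA and at 0 to 10.8 CPM in footprints. Fosb, Egr2 and Npas4 were close to the floor. Npas4 had 0 to 1 footprint reads and 0 to 4 total mRNA reads per library, Egr2 0 to 2 in both, and Fosb 0 to 3 and 1 to 6.

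Per kilobase of exon, the order in MN1 total mRNA was Junb (113 ± 5.72 SD CPM per kb, n = 6), Ier2 (81.7 ± 10.2), Arc (19.1 ± 2.28), Dusp1 (11.8 ± 1.78), Nr4a1 (8.90 ± 1.39), Egr1 (5.98 ± 1.67) and Fos (4.34 ± 1.06), and each was above the next in 6 of 6 libraries. Fosb, Npas4 and Egr2 followed at 0.42, 0.33 and 0.18 CPM per kb, and Fosb was above Npas4 in 3 of 6 libraries. In neurons the order was Junb (32.6 ± 17.6 SD CPM per kb, n = 8), Nr4a1 (25.4 ± 13.4), Egr1 (22.8 ± 10.2), Arc (13.4 ± 9.10), Fos (12.1 ± 8.03), Npas4 (10.5 ± 5.25), Dusp1 (7.16 ± 2.57), Ier2 (6.78 ± 3.32), Fosb (5.98 ± 5.58) and Egr2 (3.23 ± 2.43). Neighbours there did not differ beyond their spread except for Egr1 over Arc (8 of 8 libraries), and Junb was above Nr4a1 in only 4 of 8.

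**Figure D4:**
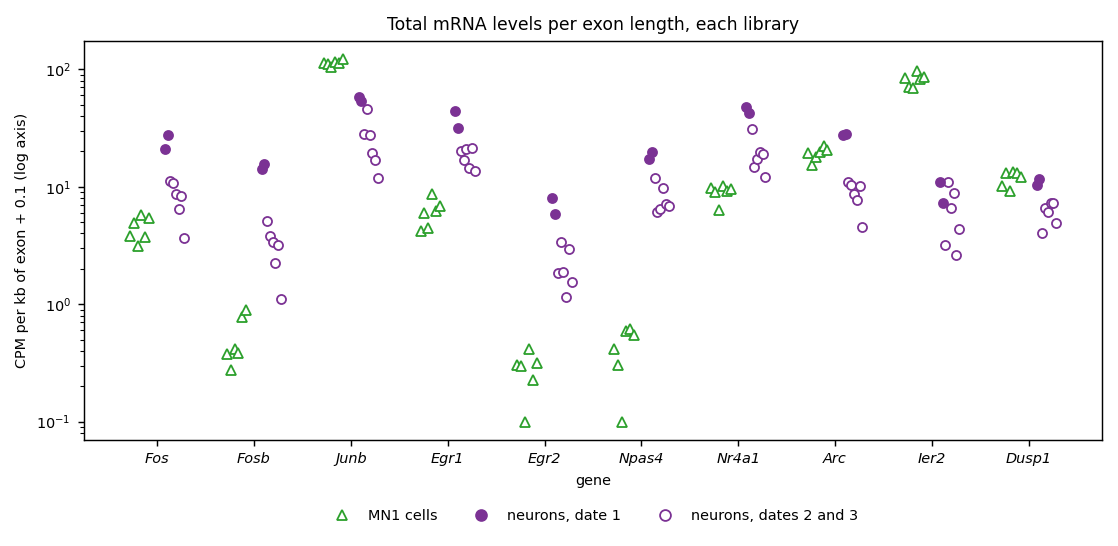
Total mRNA level of each gene in CPM per kilobase of exon plus 0.1 (vertical axis, logarithmic) in each library, scaled by TMM within each cell type. Green triangles are MN1 cells, filled purple circles are neurons of date 1 and open circles neurons of dates 2 and 3; Junb and Ier2 are higher in MN1 cells, and Fosb, Egr2 and Npas4 lie near the floor there.

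Between the cell types, 8 of 10 genes passed in footprints and 8 of 10 in total mRNA, 6 higher and 2 lower in neurons in each, which is close to the share of all genes that passed (82.6% and 81%). Egr1 was higher in neurons by 2.81 ± 0.26 (footprints) and 2.33 ± 0.28 (total mRNA) on the log2 scale, Fos by 1.92 ± 0.36 and 1.81 ± 0.35, and Nr4a1 by 3.81 ± 0.42 and 1.84 ± 0.26, with edgeR adjusted p of at most 0.000259. In the control cultures alone (GFP against non-transgenic) Fos total mRNA was at 1.1 and did not pass (adjusted p = 0.137, the largest over its alternatives). Ier2 was lower in neurons, with log2 fold changes of -2.64 ± 0.18 and -3.13 ± 0.24, and Junb had -0.96 ± 0.19 and -1.45 ± 0.26. Fosb, Egr2 and Npas4 also passed, but their fitted folds rest on few MN1 reads. They met the filter on low counts only through the neurons, where they were high. Pooled over libraries, Npas4 had 1 footprint read in MN1 cells against 409 in neurons, a ratio of 212 in reads relative to the library totals (exact 95% interval 37.8 to 8393), and 13 against 1132 in total mRNA, a ratio of 38.5 (22.4 to 72.5). Most of the neuron reads of these 3 genes came from the deep date 1 libraries. Without them, chosen after seeing the data, the ratio for Npas4 was 105 (18.4 to 4208) in footprints and 25.2 (14.5 to 47.7) in total mRNA. The ratio was 20.5 (12.9 to 34.8) for Fosb and 22.7 (10.9 to 56.9) for Egr2 in total mRNA, and without date 1 it was 7.30 (4.47 to 12.6) and 9.80 (4.55 to 25.1). These intervals cover counting error only.

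Arc and Dusp1 did not pass between the cell types, at 0.08 ± 0.29 and 0.43 ± 0.25 in footprints (edgeR adjusted p = 0.807 and 0.119) and at -0.21 ± 0.30 and -0.29 ± 0.21 in total mRNA (0.516 and 0.216). For Arc this depended on date 1 of the neurons. Without it, chosen after seeing the data, Arc was lower in neurons in both library types (-0.54, adjusted p = 0.0322, and -0.70, adjusted p = 0.00463), and Dusp1 was lower in total mRNA (-0.52, adjusted p = 0.0314). Over the alternatives the adjusted p of Arc ran from 0.0209 to 0.929 in footprints and from 0.00463 to 0.988 in total mRNA, and that of Dusp1 from 0.0145 to 0.926 and from 0.0314 to 0.569. Dusp1 footprints passed, higher in neurons, when any of 4 libraries was left out, which were the date 2 GFP and hTDP-43 A315T libraries of MN1 cells (0.64 and 0.66) and the date 3 hTDP-43 and hTDP-43 A315T libraries of neurons (0.62 and 0.66). The cell types also differ in cycloheximide treatment, in origin and in division, which cannot be told apart here.

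No gene of the list passed between genotypes in MN1 cells. In footprints 6 genes could be tested, with values against GFP from -0.18 to 0.30 for hTDP-43 A315T and from -0.54 to -0.04 for hTDP-43, and from 0.05 to 0.56 between the A315T and wild-type forms. In total mRNA 7 could be tested, with values from -0.20 to 0.19, from -0.33 to 0.00 and from 0.00 to 0.34. No gene passed in these 6 comparisons with edgeR or DESeq2, nor at an unadjusted p under 0.05, where 0.0115%, 0% and 0% of all genes passed in footprints and 0.00965%, 0.01% and 0% in total mRNA. The footprint to total mRNA share between hTDP-43 A315T and GFP gave values from -0.29 to 0.59 with none called, and 0% of all genes called.

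In MN1 cells the values were higher on the later date. All genes tested had higher fitted levels at date 2 than at date 1, with a median log2 fold change of 0.41 over 6 genes in footprints and of 0.26 over 7 in total mRNA. None passed in footprints with edgeR or DESeq2, where 4.67% of all genes did. At an unadjusted p under 0.05 were 2 of the 6 and 18.7% of all genes. In total mRNA Egr1 passed, from 18.3, 26.6 and 19.4 CPM at date 1 (hTDP-43 A315T, GFP and hTDP-43) to 38.7, 27.6 and 30.2 CPM at date 2, without overlap (0.64 ± 0.21, edgeR adjusted p = 0.0464), where 15.2% of all genes passed. DESeq2 called none, and the call was lost without any 1 of the 4 hTDP-43 and hTDP-43 A315T libraries. Of the other primary response genes, Ier3 rose in both library types (1.03 and 1.05), and Zfp36, which degrades AU-rich mRNAs, rose in footprints (1.16, adjusted p = 0.00559). In total mRNA 6 of 27 of these genes rose and 2 fell, which were Ccn1, a matricellular protein (-0.93, adjusted p = 0.0149), and Jun, the AP-1 partner of Fos (-0.45, adjusted p = 0.025).

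Footprints relative to total mRNA differed by gene. The 2 library types differ in poly(A) selection and fragmentation as well as in ribosome protection, and 59.5% of all genes differed between them in MN1 cells and 56.3% in neurons. Fos was higher in footprints in both cell types, by 1.03 ± 0.26 on the log2 scale in MN1 cells (edgeR adjusted p = 0.00279) and by 1.06 ± 0.34 in neurons (adjusted p = 0.0114). Egr1 and Dusp1 were higher in footprints of neurons, by 0.82 ± 0.23 (adjusted p = 0.00569) and 0.79 ± 0.24 (adjusted p = 0.00816). Without date 1 of the neurons Dusp1 was at 0.70 (adjusted p = 0.0582, with 0.0012 to 0.0582 over its alternatives), and Fos (0.88) and Egr1 (0.72) still passed. Ier2 was lower in footprints of MN1 cells (-0.46 ± 0.11, adjusted p = 0.00144). In all 3 of 7 genes passed in MN1 cells and 3 of 10 in neurons, and with the culture as a replicate block 4 passed in each, the fourth being Egr1 in MN1 cells (0.45, adjusted p = 0.0383) and Junb in neurons (0.55, adjusted p = 0.00173). Over their alternatives the adjusted p ran from 0.0383 to 0.449 for Egr1 and from 0.00173 to 0.192 for Junb. Arc, Npas4, Nr4a1 and Fosb in neurons lay between -0.18 and 0.07 without passing.

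Nr4a1 stood apart in MN1 cells. Its total mRNA gave 26 to 69 reads per library, or 15.3 to 24.9 CPM. Its footprints gave 5, 2, 7, 4, 4 and 0 reads, or 0 to 10.8 CPM, on a scale set separately for that library type. The footprint level was lower by 1.93 ± 0.33 on the log2 scale (log2 fold change -1.93, edgeR adjusted p = 8.27e-05). In neurons its footprints and total mRNA overlapped, at 24.9 to 144 CPM and 29.9 to 117 CPM. The interaction of library and cell type was 2.06 ± 0.59 (edgeR adjusted p = 0.0309), against a median of 0.20 over all genes. The fit did not pair the footprint and total mRNA libraries of a culture. Nr4a1 was the only 1 of 10 genes to pass, which is near the share of all genes that passed (8.07%). That call was lost without any 1 of the 6 MN1 cultures or without the hTDP-43 neuron culture of date 1, with an adjusted p of up to 0.112.

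**Figure D5:**
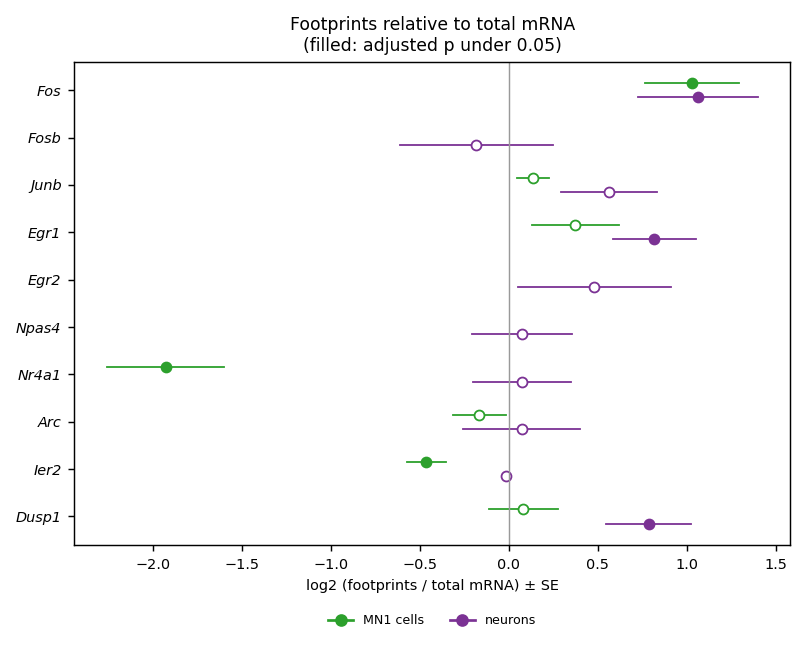
Log2 ratio of footprints to total mRNA for each gene (horizontal axis, with SE as bars) in MN1 cells (green) and neurons (purple). Filled points passed an edgeR adjusted p of 0.05; Fos lies near 1 in both cell types, and Nr4a1 lies at -1.93 in MN1 cells and near 0 in neurons.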

How the data were processed

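Ribosome footprints and poly(A)-selected total mRNA were sequenced from 14 cultures (28 libraries), and the deposited files hold whole-number read counts per gene for each library. Per the labels and the study's methods, the authors trimmed adapters with cutadapt 1.8.1, removed non-coding RNA with bowtie2, aligned to GRCm38.p4 with TopHat2 and counted uniquely mapped reads on exons, UTRs included and without strand, with featureCounts 1.4.4 and Ensembl 80. Groups came from the sample titles. No 2 libraries held identical values.

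The counts were tested as deposited with edgeR 4.0.16 (quasi-likelihood test, TMM scaling, Benjamini-Hochberg adjustment over all genes tested, threshold 0.05) in R 4.3.3 after a filter on low counts (minimum 10 in enough libraries, 15 in all). DESeq2 1.42.0 was an alternative. Each pair of genotypes was fitted on its own libraries, dates and library types with the genotype as a term, and cell types as the mean of the neuron groups minus the mean of the MN1 groups. Levels are CPM, scaled by TMM within each cell type and library type. Tables used pandas 2.3.3 and numpy 2.4.6 with Python 3.11.15, and plots used matplotlib 3.10.9. The fitting code was tested on simulated data. Other alternatives were DESeq2 size factors, no filter on low counts, a replicate block, leaving out each library, and sets of libraries left out after seeing the data.

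The 10 genes, the pathway lists and the marker lists were chosen with earlier results of these data known. All 10 genes are named. Of each list, at most the 3 genes with the largest change in each direction past the threshold could be named in comparisons of dates, library types and cell types, and every called gene in comparisons of genotypes. For Fos, Arc, Egr1 and Junb, the 3 other genes of nearest pattern were named (root mean square difference of centred log2 of CPM plus 2, mean of at least 10 CPM, and an SD of at least 0.5 times that of the gene). No standard error is printed beside an unadjusted p over 0.9. Replicate numbers go with the dates in the titles, read here as culture dates, so they pair cultures across genotypes. Deviations from group means correlated within a date, with a mean r in footprints of 0.326 (MN1) and 0.123 (neurons, 0.0266 to 0.259) and in total mRNA of 0.502 (MN1) and 0.234 (neurons, -0.271 to 0.697).

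In neuron footprint libraries 3 reads are worth 1.19 to 18.1 CPM, so differences of low genes are not detectable there. The intervals cover counting error only.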

Additional observations from a re-analysis of the deposited data

Results flagged for a closer look

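The ratio of Nr4a1 footprints to total mRNA differed between the cell types, as tested by an interaction term in edgeR over both kinds of library (log2 difference of 2.06 ± 0.59, neurons above MN1 cells, adjusted p = 0.0309, with a range of 1.9e-06 to 0.672 over its alternatives). In MN1 cells 22 footprint reads in all carry this value, against 758 in neurons. Over all genes 8.07% passed, with a median of 0.20, and the fit did not pair the library types of a culture. The difference was 2.37 in the control cultures alone (GFP against non-transgenic) and 1.76 without date 1 of the neurons. Cycloheximide was given before lysis to MN1 cells only, and its part in the difference cannot be told apart from the cell type.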

How the results depend on the processing

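Of the log2 fold changes of single genes under an alternative, 1255 kept direction and side of the threshold, 91 passed where they had not, 59 no longer passed and 38 reversed, and 278 of the counts of genes called stayed within 1.5 times. The cause of the changes below was not tested, except that leaving libraries out leaves fewer samples. Leaving out 1 library moved the count of genes called between 0 and 6 (neuron footprints, date 2 against 1, from 4), 2 and 9 (date 3 against 1, from 8), 0 and 7, 0 and 6 and 0 and 3 (neuron total mRNA, dates 2 against 1, 3 against 1 and 3 against 2, each from 0), and 0 and 1 (MN1 total mRNA by date, and the cell type interaction, each from 1). DESeq2 gave 0 and 2 in neuron footprints for dates 2 and 3 against 1, 4 in total mRNA for date 3 against 1, and 0 for MN1 total mRNA by date. DESeq2 size factors gave 1 in neuron total mRNA for date 3 against 1 and 0 for the cell type interaction, as did control cultures alone. Without the filter on low counts, 8 were called in footprints for date 2 against 1, 3, 7 and 1 in total mRNA for the 3 comparisons of dates, 6 and 3 between genotypes in footprints (hTDP-43 A315T and hTDP-43) and 1 and 1 in total mRNA. Without the genotype term the counts were 8 (footprints, date 2 against 1), 3 (total mRNA, date 3 against 1) and 0 (MN1 total mRNA). Without non-transgenic cultures, and without footprint libraries under 200000 reads, 2 were called in footprints for date 2 against 1. Without the Lars2-rich libraries 9 and 8 were called in total mRNA at dates 2 and 3, the second on 1 library of date 3. These library sets were chosen after seeing the data. With the replicate block the hTDP-43 footprint difference from non-transgenic neurons was -0.31 for Fos and -0.11 for Nr4a1, and with dates 2 and 3 alone -0.25 and -0.14, while leaving out 1 library gave -0.25 to 1.57 and -0.14 to 1.25. That block fit also held dates 2 and 3 only. The block changed no other call than those of Egr1 and Junb given above. Ier2 in total mRNA was at 0.05 at date 3 without the Lars2-rich libraries and ran from -1.28 to 0.51 (date 2) and -1.28 to 0.12 (date 3) with 1 library left out. Footprints relative to total mRNA in neurons lay near 0 and turned sign for Arc (-0.04 with DESeq2, -0.07 with the block, -0.10 without date 1, -0.07 to 0.09 with 1 culture left out), Npas4 (-0.07, -0.04, -0.31, -0.09 to 0.08), Nr4a1 (-0.05, -0.04, -0.23, -0.07 to 0.06) and Ier2 (0.08 without date 1, -0.18 to 0.08), and in MN1 cells for Dusp1 (-0.01 without the filter, -0.01 to 0.21). Arc footprints between cell types were at -0.12 with DESeq2, -0.87 in control cultures, -0.54 without date 1 and -0.28 to 0.33 with 1 library left out.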

Other observations

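Other genes of the response were also called between footprints and total mRNA, where 56.3% of all genes were called in neurons and 59.5% in MN1 cells, so the counts below do not set these lists apart. In neurons 8 of 31 other primary response genes were higher in footprints and 3 were lower, and 6 of 12 later response genes were higher and none lower, among them Pcsk1, a prohormone convertase (2.08 on the log2 scale), and Scg2 (1.67). In MN1 cells 4 of 26 other primary response genes were higher in footprints and 5 lower, with Zfp36 at 3.39 and Ccn1, a matricellular protein, at -1.98.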
